A study of Mus musculus with 6 samples.

Results

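The 7 alpha and beta globin genes of the mouse that were followed here encode the protein chains of haemoglobin. They were taken by symbol from a table of 22394 genes. The alpha chains come from Hba-x, Hba-a1 and Hba-a2, and the beta chains from Hbb-y, Hbb-bh1, Hbb-bs and Hbb-bt. They were chosen by the FPKM of the 3 control and 3 mutant libraries, with the difference of Hba-a2 between the genotypes already known, so their differences between mutants and controls are given as values in each library, and nothing is read from the tests that cover all genes. All 7 were in the table, and all 7 passed the filter on low values, a minimum normalized count of 10 met by no fewer than 3 libraries.

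Haemoglobin carries oxygen and is built from alpha and beta chains, each holding a haem group. Early embryos make it in large red cells of the yolk sac, called primitive. Their chains include those of the embryonic genes Hba-x, Hbb-bh1 and Hbb-y. Red cells made later in the fetal liver, called definitive, use the adult chains of Hba-a1, Hba-a2, Hbb-bs and Hbb-bt. Both kinds circulate at mid-gestation and reach the kidney through its vessels. In both gene clusters the embryonic genes lie upstream of the adult genes, and distant enhancers are shared within a cluster.

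RNA was sequenced from whole paired kidneys of mouse embryos at E13.5, mid-gestation, in 3 libraries of each genotype. Mutants were Foxd1Cre;Ptch1 (flox/-), with Cre, a floxed and a null Ptch1 allele, and control littermates were Ptch1 (flox/+), with a floxed and a wild-type allele. Ptch1 encodes the receptor that restrains Hedgehog signalling, and Foxd1 drives Cre in the progenitors of the renal stroma. All 6 embryos thus shared a floxed allele, while the null allele of the mutants was present in every cell, red cells included, and the labels list no Cre in the controls. The strain and whether blood was washed out are not given in the sources used here. Library depth was 13261588 to 47847925 reads, counted over the genes of the deposited table and worked back from its values. The kidney progenitor genes Six2 (97.9 to 176 FPKM, reads scaled to gene length and library depth) and Pax2 (36.1 to 57.8 FPKM) were present in every library, and 8 of 10 liver genes were below 1 FPKM in every library. Sex was not balanced between the groups: the X-linked RNA Xist was at 72.9, 0.0471 and 53.3 FPKM in controls 1 to 3 and 0.103, 0.206 and 6.19 FPKM in mutants 1 to 3, and the Y-linked gene Ddx3y was at 0.0598, 17.8 and 0.0177 FPKM in the controls and 16.2, 15.8 and 13.9 FPKM in mutants. Mutant 3 thus held Xist beside Ddx3y.

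The adult genes come in near-identical pairs, and the sequences show how little separates the copies. In the annotated transcripts (GENCODE M21, build GRCm38, the assembly also called mm10) the coding sequences of Hba-a1 and Hba-a2 are 429 bases long and differ at 1 base, C381T, counted from 1 at the A of the start codon with the Hba-a1 base given before the position. Those of Hbb-bs and Hbb-bt are 444 bases long and also differ at 1 base, C417T, with the Hbb-bs base before the position. Both bases lie in exon 3. The 41 coding bases around each are given on the coding strand with the differing base in capitals, for Hba-a1 (chr11:32284323-32284363, plus strand), Hba-a2 (chr11:32297140-32297180, plus strand), Hbb-bs (chr7:103826672-103826712, minus strand) and Hbb-bt (chr7:103812663-103812703, minus strand).
Hba-a1: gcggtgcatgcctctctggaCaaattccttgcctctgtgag
Hba-a2: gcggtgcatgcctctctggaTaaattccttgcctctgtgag
Hbb-bs: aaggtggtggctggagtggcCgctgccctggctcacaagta
Hbb-bt: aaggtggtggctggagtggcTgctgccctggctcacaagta

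These pairs bear on how far a read can name its gene. Of all stretches of 50 bases in the Hba-a2 transcript, 86.9% also occur in the Hba-a1 transcript, and 74.5% of stretches of 100 bases do. In the other direction 67.5% of the 50-base stretches of Hba-a1 occur in Hba-a2. For the beta pair, 65.8% of the 50-base stretches of Hbb-bs occur in Hbb-bt and 58.3% of those of Hbb-bt occur in Hbb-bs. No 50-base stretch was shared by any other pair compared, such as Hba-a1 with Hba-x (62.0% coding identity) or Hbb-y with Hbb-bh1 (76.4%). The read length and the treatment of reads that match more than 1 gene are not given in the sources used here. The split of reads within each adult pair is therefore uncertain, and sums of the copies are given beside the single genes. If reads that match more than 1 gene were left out, the adult sums would be too low as well. Levels, sums, shares and ratios that set adult against embryonic genes, or alpha against beta genes, carry this limit.

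Promoters were matched for 6 of the 7 genes in the RefSeq table of build GRCm38.p6. Over the 297 bases that the Hba-a1 and Hba-a2 promoter windows have in common, all 297 were identical in this reference. The letters in these embryos, whose strain is not given, may differ from it. The Hba-a2 promoter (the 120 bases before the RefSeq start, chr11:32296372-32296491, plus strand) and that of the most abundant embryonic gene, Hbb-y (chr7:103853208-103853327, minus strand), are given with the motifs that were searched for in capitals.
Hba-a2: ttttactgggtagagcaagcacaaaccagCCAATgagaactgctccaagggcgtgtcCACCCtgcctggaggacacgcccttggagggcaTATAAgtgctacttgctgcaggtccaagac
Hbb-y: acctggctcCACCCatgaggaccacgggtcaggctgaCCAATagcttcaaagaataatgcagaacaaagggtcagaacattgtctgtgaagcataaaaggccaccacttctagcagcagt
The motifs were searched on both strands. CACCC, the core of the motif bound by Klf1, occurred within these 120 bases in 6 of 6 matched globin promoters, against 31.7% of 32851 promoters of the same length. CCAAT occurred in 5 of 6 (all but Hba-x) against 21.3%, and TATAA in 5 of 6 (all but Hbb-y) against 11.8%. GATAA, a form of the GATA motif, was in 1 of 6 (Hba-x) against 10.5%, and in 6 of 6 when 250 bases were searched, against 22.6%. Hba-a1 and Hba-a2 both count among the 6 although their promoters hold the same letters, so the 6 are not separate cases. The motifs found are matches of letters and not sites of binding.

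Globin RNA was abundant in all 6 kidneys, and its total did not separate the genotypes. Globin genes took 0.304%, 0.244% and 0.233% of the reads counted over all genes in controls 1 to 3 and 0.189%, 0.290% and 0.332% in mutants 1 to 3. Summed over the 7 genes, the level was 4596, 3690 and 3694 FPKM in the controls and 2694, 4393 and 5024 FPKM in mutants. Mutant 1 was the lowest of all libraries and mutant 3 the highest, with the controls between mutants 1 and 3. In whole kidneys, fewer red cells and less globin RNA per red cell cannot be told apart.

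Among the genes, levels per length spanned a wide range. In controls the order was Hbb-y at 1602 ± 981 FPKM (SD, n = 3 for all values with ±), Hba-a1 at 1046 ± 207, Hbb-bs at 933 ± 503, Hbb-bt at 163 ± 125, Hba-x at 129 ± 99.0, Hba-a2 at 96.5 ± 30.0 and Hbb-bh1 at 23.0 ± 17.8 FPKM. Hbb-y, Hba-a1 and Hbb-bs did not differ beyond their spread, nor did Hbb-bt, Hba-x and Hba-a2, while every gene of the former set was above every gene of the latter in each control. In mutants the order was Hbb-y at 1525 ± 1072, Hba-a1 at 1387 ± 342, Hbb-bs at 870 ± 287, Hbb-bt at 130 ± 36.3, Hba-x at 102 ± 58.5, Hbb-bh1 at 19.9 ± 15.4 and Hba-a2 at 3.51 ± 3.50 FPKM. The order was the same in both groups except that Hba-a2 stood below Hbb-bh1 in the mutants.

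**Figure D1:**
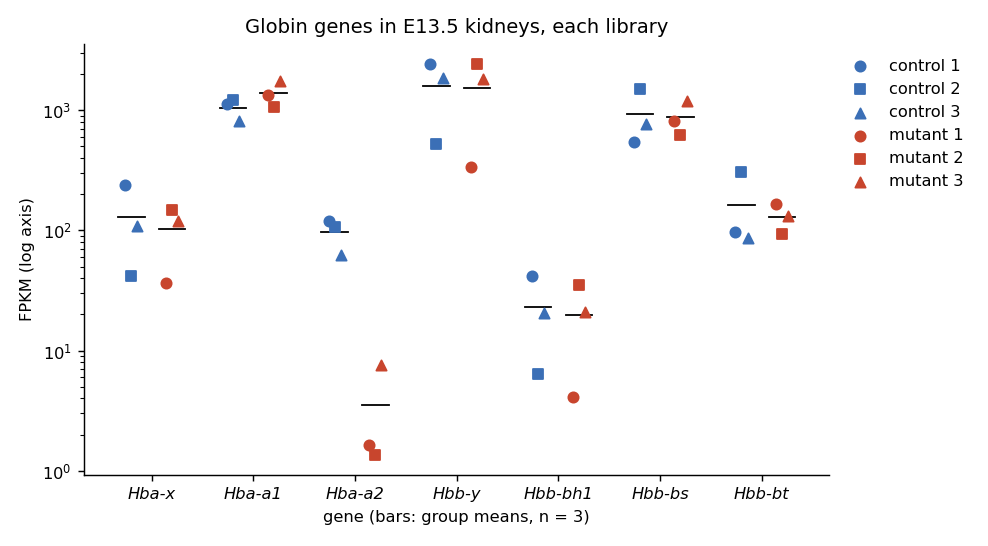
FPKM of the 7 globin genes (x axis) in each of the 6 libraries on a log axis, with controls in blue, mutants in red, 1 marker shape per replicate number and a black line at the mean of each group (n = 3). The Hba-a2 points of the mutants (1.35 to 7.55 FPKM) lie below all of its control points (62.9 to 121 FPKM), and the points of the other 6 genes overlap between the groups.

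Of the 7 genes, 1 had groups that did not overlap, Hba-a2, against a background of 16.7% of the 16933 genes tested (9.09% lower and 7.57% higher in mutants). The same gene was the 1 of 7 with a limma adjusted p under 0.05, against a background of 0.307% (0.0886% for genes lower in mutants), and the 1 of 7 in the authors' deposited table, against a background of 4.61% there. The limma call of Hba-a2 was lost without control 1, mutant 1 or mutant 2. Since the genes were chosen with this contrast known, nothing is read from these counts. Differences between groups are given as mutant minus control on the scale of log2(normalized count + 1), which understates the change of low genes.

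Hba-a2, an adult alpha chain gene (chromosome 11, 32296489 to 32297298), was at 121, 106 and 62.9 FPKM in controls 1 to 3 and at 1.64, 1.35 and 7.55 FPKM in mutants 1 to 3. Every mutant was below every control, and mutant 3 was the highest of the mutants. The reads behind these values were 1460, 1470 and 856 in controls and 20, 10 and 200 in mutants. The control mean was 27.5 times the mutant mean and the log2 difference was -5.13 (SE 0.58). Of all genes tested, 10 (0.0591%) had a log2 difference of greater size. Mutant 3, the highest mutant, was also the library with Xist beside Ddx3y, and whether the Hba-a2 value is linked to that was not tested.

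Its copy Hba-a1 (chromosome 11, 32283511 to 32284465) encodes the same adult chain and held most reads of the pair. It was at 1121, 1205 and 813 FPKM in the controls and at 1341, 1071 and 1751 FPKM in mutants. Mutants 1 and 3 were above every control, and mutant 2 lay between controls 3 and 1. The log2 difference was 0.40 (SE 0.23). Hba-a1 was the only 1 of the 7 genes with a positive difference, and the other 6 were negative. Summed over both copies, adult alpha RNA was at 1242, 1311 and 876 FPKM in the controls and 1342, 1072 and 1758 FPKM in mutants, a log2 difference of 0.30 (SE 0.23) with overlapping groups. The sum rests less than either copy on how the shared reads were assigned, but would still miss any that were left out.

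A share within a library does not depend on how much blood a kidney held. Of the reads of the adult alpha pair, Hba-a2 took 7.87%, 6.51% and 5.78% in controls 1 to 3 (95% Wilson intervals 7.49% to 8.26%, 6.19% to 6.84% and 5.41% to 6.16%). It took 0.0972% (0.0629% to 0.150%), 0.0998% (0.0542% to 0.184%) and 0.341% (0.297% to 0.391%) in mutants 1 to 3. The group means were 6.72% ± 1.06 and 0.179% ± 0.140 (SD, n = 3), a ratio of 37.5. Mutants 1 and 2 were alike within their intervals, and mutant 3 was above both and below every control. The intervals cover only the counting error of reads taken as independent. Reads without molecular identifiers are not independent molecules, so the intervals may be too narrow, and they do not cover the assignment of reads to copies.

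**Figure D2:**
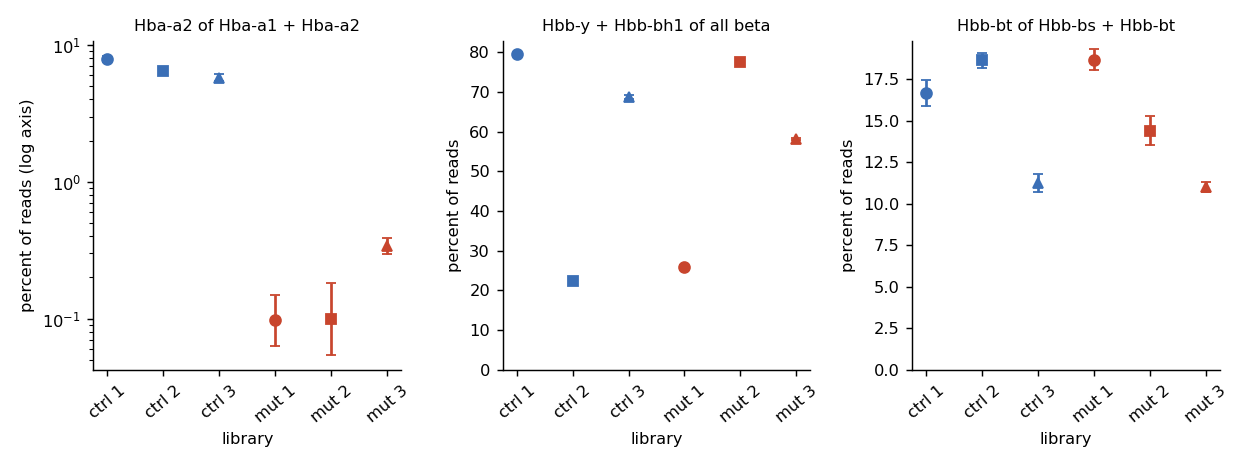
Shares of globin reads in each library with 95% Wilson intervals as bars: Hba-a2 among the adult alpha reads (left, log axis), Hbb-y plus Hbb-bh1 among all beta reads (middle) and Hbb-bt among the adult beta reads (right), with controls in blue and mutants in red. The left panel separates the groups (5.78% to 7.87% against 0.0972% to 0.341%), while the other panels overlap and the middle panel has control 2 and mutant 1 at 22.5% and 25.8%.

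The adult beta pair showed no such split between its copies. Hbb-bs (chromosome 7, 103826534 to 103828096), the more abundant adult beta gene, was at 540, 1500 and 760 FPKM in the controls and 807, 619 and 1183 FPKM in mutants. Control 2 was the highest library and control 1 the lowest, and the log2 difference was -0.02 (SE 0.37). Hbb-bt (chromosome 7, 103812524 to 103813996) was at 96.4, 307 and 85.7 FPKM in the controls and 166, 92.9 and 131 FPKM in mutants, again highest in control 2, with a log2 difference of -0.11 (SE 0.45). All mutant values of both genes lay inside the range of the controls. Their sum was 636, 1807 and 845 FPKM in the controls and 973, 712 and 1313 FPKM in mutants (log2 difference -0.03, SE 0.38). Hbb-bt took 16.7%, 18.6% and 11.2% of the reads of the pair in controls and 18.7%, 14.4% and 11.0% in mutants. These shares ranged over more than their counting intervals (at most 0.882 percentage points to either side) within each group, and the group means were 15.5% ± 3.84 and 14.7% ± 3.84.

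The 3 embryonic genes varied more among embryos than any adult gene other than Hba-a2, and did so together. Hbb-y (chromosome 7, 103851749 to 103853216), an embryonic beta chain gene, was at 2440, 524 and 1843 FPKM in the controls and 339, 2425 and 1811 FPKM in mutants. Its highest library was 7.20 times its lowest. Hbb-bh1 (chromosome 7, 103841637 to 103843164), the other embryonic beta chain gene and the least abundant of the 7 in controls, was at 41.8, 6.38 and 20.7 FPKM in the controls and 4.09, 34.9 and 20.9 FPKM in mutants, a range of 10.2 times. The embryonic alpha chain gene Hba-x (chromosome 11, 32276400 to 32278116) was at 237, 41.8 and 109 FPKM in the controls and 36.2, 148 and 121 FPKM in mutants, a range of 6.54 times. For each of the 3, control 1 was highest, mutant 2 next, controls and mutants numbered 3 in the middle, control 2 next to lowest and mutant 1 lowest. The low libraries were thus 1 of each genotype. The log2 differences were -0.22 (SE 0.78) for Hbb-y, -0.29 (SE 0.85) for Hbb-bh1 and -0.24 (SE 0.67) for Hba-x, each smaller than its SE.

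The signs of these differences rested on single libraries. Leaving out 1 library at a time gave -0.89 to 0.66 for Hbb-y, -1.03 to 0.61 for Hbb-bh1 and -0.89 to 0.38 for Hba-x, and -0.35 to 0.39 for Hbb-bs and -0.45 to 0.47 for Hbb-bt. Hba-a2 stayed between -5.89 and -4.68 and Hba-a1 between 0.22 and 0.57. In the authors' deposited table the log2 fold changes were 0.77 (SE 1.14) for Hbb-y, 0.90 (SE 1.21) for Hbb-bh1 and 0.70 (SE 0.86) for Hba-x, so 3 of the 7 genes had the opposite sign there. For the adult genes the authors' deposited table gave 0.46 (SE 0.23) for Hba-a1, -4.95 (SE 0.99) for Hba-a2, -0.38 (SE 0.55) for Hbb-bs and -0.50 (SE 0.71) for Hbb-bt.

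The balance of embryonic and adult beta RNA spread widely among embryos of the same labelled age. Hbb-y and Hbb-bh1 together took 79.4%, 22.5% and 68.7% of all beta globin reads in controls 1 to 3 and 25.8%, 77.4% and 58.1% in mutants 1 to 3. The group means were 56.9% ± 30.3 and 53.8% ± 26.1, so the difference of -3.07 percentage points was far within the spread. On the alpha side, Hba-x took 18.2%, 3.58% and 12.6% of the reads in controls and 3.00%, 13.7% and 7.31% in mutants, lowest in the same 2 libraries. Within the embryonic beta pair, Hbb-bh1 took 1.08% to 1.63% of the reads in controls and 1.10% to 1.37% in mutants, a narrow range beside that of the pair as a whole. Summed, the embryonic genes were at 2719, 572 and 1973 FPKM in the controls and 379, 2609 and 1953 FPKM in mutants. The adult genes were at 1878, 3118 and 1721 FPKM in the controls and 2315, 1784 and 3071 FPKM in mutants. In control 2 and mutant 1 adult RNA was thus above embryonic RNA, as it was in mutant 3, while in the other 3 libraries embryonic RNA was above adult RNA. This order carries the limit given above, since the adult sums would be too low if shared reads were left out.

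**Figure D3:**
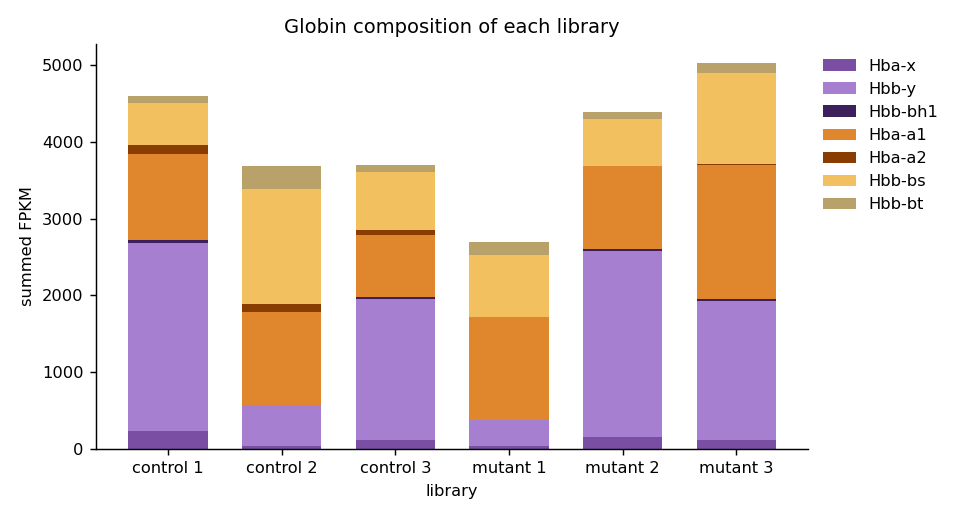
Summed FPKM of the 7 globin genes in each library, stacked by gene, with the embryonic genes in purple and the adult genes in orange, yellow and brown. Hbb-y fills much of the bar in control 1, control 3, mutant 2 and mutant 3 (1811 to 2440 FPKM) and little in control 2 and mutant 1 (524 and 339 FPKM). The dark Hba-a2 band of the controls (62.9 to 121 FPKM) is too thin to read in the mutants (1.35 to 7.55 FPKM).

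Some other genes were highest or lowest in the same libraries. Nphs1, which encodes nephrin of the podocyte slit diaphragm, was at 0.0497, 1.28 and 0.0618 FPKM in the controls and 0.939, 0.0973 and 0.245 FPKM in mutants, highest in control 2 and mutant 1. Afp, a fetal plasma protein gene, was at 0.111, 1.64 and 0.454 FPKM in the controls and 1.68, 0.145 and 0.253 FPKM in mutants, again highest in those libraries. Another liver gene, Alb, was not, at 0.383, 0.275 and 0.480 FPKM in the controls and 0.202, 0.257 and 0.288 FPKM in mutants. Foxd1 was lowest in them, at 31.5 FPKM in control 2 and 34.7 FPKM in mutant 1 against 54.8 to 82.4 FPKM elsewhere. Nphs1, Afp, Alb and Foxd1 were picked here after their values were seen, and their part in the globin values was not tested. Hbb-bh0, a beta globin pseudogene between Hbb-y and Hbb-bh1, was low in the same libraries, with 10.7, 0.928 and 5.68 FPKM in the controls and 1.41, 11.0 and 7.78 FPKM in mutants (log2 difference 0.32, SE 0.93, limma adjusted p = 0.911).

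Alpha and beta chains are needed in equal number, and their RNA was compared per length. The ratio of summed alpha FPKM to summed beta FPKM was 0.474, 0.579 and 0.363 in controls and 1.05, 0.385 and 0.597 in mutants. By these values, which carry the limit on shared reads given above, beta RNA was in excess in every library but mutant 1. Mutant 1 was the library with the least globin RNA. Alpha genes took 34.5%, 38.5% and 28.7% of globin reads in controls and 53.5%, 30.1% and 39.9% in mutants, with means of 33.9% ± 4.94 and 41.2% ± 11.7 and overlapping groups. Hbb-y was 9.37 to 16.9 times as high as the embryonic alpha gene Hba-x over the 6 libraries.

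Genes that red cells express beside globin were also compared between the genotypes in the test over all genes. Of 76 genes in 4 lists (membrane and cytoskeleton, enzymes and chaperones, haem synthesis and iron uptake, and transcription factors of erythroid cells), 72 were in the table and 61 were tested. None had a limma adjusted p under 0.05, against a background of 0.307% of all genes tested. The authors' deposited table also called 0, against a background of 4.61% there. At so low a share in limma, 0 of 61 is near the background, and nothing is read from it. At an unadjusted p under 0.05 there were 6, against 1630 of all 16933 genes tested. Of the 61, 42 had a negative and 19 a positive log2 difference, with a median of -0.08, against 8625 negative and 8308 positive with a median of -0.01 over all genes tested. The groups did not overlap for 7 of the 61, against 16.7% of all genes tested. The lists were written with earlier results of these data known, though not picked for how their genes moved, and many members are also expressed outside red cells.

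In the membrane list (15 of 19 tested, 10 negative, 5 positive, median -0.13), Epb41, which ties the membrane skeleton together, was at 19.9 ± 3.30 FPKM in the controls and 16.0 ± 2.21 FPKM in mutants. The sialoglycoprotein gene Gypc was at 16.0 ± 1.86 and 15.6 ± 2.79 FPKM. The water channel gene Aqp1, which endothelium and kidney tubules also express, was at 3.64 ± 1.02 FPKM in the controls and 7.13 ± 1.84 FPKM in mutants, higher in all 3 mutants (log2 difference 0.97, SE 0.28, limma adjusted p = 0.318). In the list of enzymes and chaperones (13 of 21 tested, 8 negative, 5 positive, median -0.09), the peroxiredoxin gene Prdx2 was at 420 ± 43.3 and 405 ± 33.5 FPKM. Bnip3l, which acts in the clearance of mitochondria, was at 50.9 ± 12.2 and 45.0 ± 3.73 FPKM, and the ubiquitin conjugating enzyme gene Ube2o at 14.5 ± 0.539 and 11.8 ± 1.63 FPKM (limma adjusted p = 0.514).

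In the haem and iron list (16 of 17 tested, 12 negative, 4 positive, median -0.07), the sorting nexin gene Snx3 was at 96.3 ± 3.28 and 102 ± 6.14 FPKM. Alad, an enzyme of haem synthesis, was at 66.1 ± 8.83 and 69.3 ± 3.91 FPKM, and the transferrin receptor gene Tfrc at 18.8 ± 4.65 and 15.5 ± 1.86 FPKM. Alas2, the erythroid enzyme that starts haem synthesis, was at 5.31, 18.0 and 6.73 FPKM in the controls and 5.66, 5.06 and 9.92 FPKM in mutants, highest in control 2 like the adult beta genes. Among the transcription factors (18 of 20 tested, 12 negative, 6 positive, median -0.06), the cofactor Ldb1, which joins the globin enhancers to their promoters, was at 110 ± 11.0 and 115 ± 2.68 FPKM. Klf3 was at 16.6 ± 1.03 and 15.9 ± 2.69 FPKM and Foxo3 at 10.3 ± 1.09 and 8.62 ± 0.557 FPKM. Lyl1 had the smallest adjusted p of the 61, at 3.47 ± 0.760 and 6.04 ± 0.733 FPKM (log2 difference 0.81, SE 0.21, limma adjusted p = 0.261).

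Genes more restricted to red cells were low beside the globins. Slc4a1, the anion exchanger of the red cell membrane, was at 1.08 ± 0.331 and 0.782 ± 0.0868 FPKM. Klf1, the activator of adult beta globin, was at 0.455 ± 0.157 and 0.272 ± 0.0686 FPKM. Both had overlapping groups, and with Alas2 and Lyl1 they fall outside the rule for named genes and were chosen after their values were seen.

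**Figure D4:**
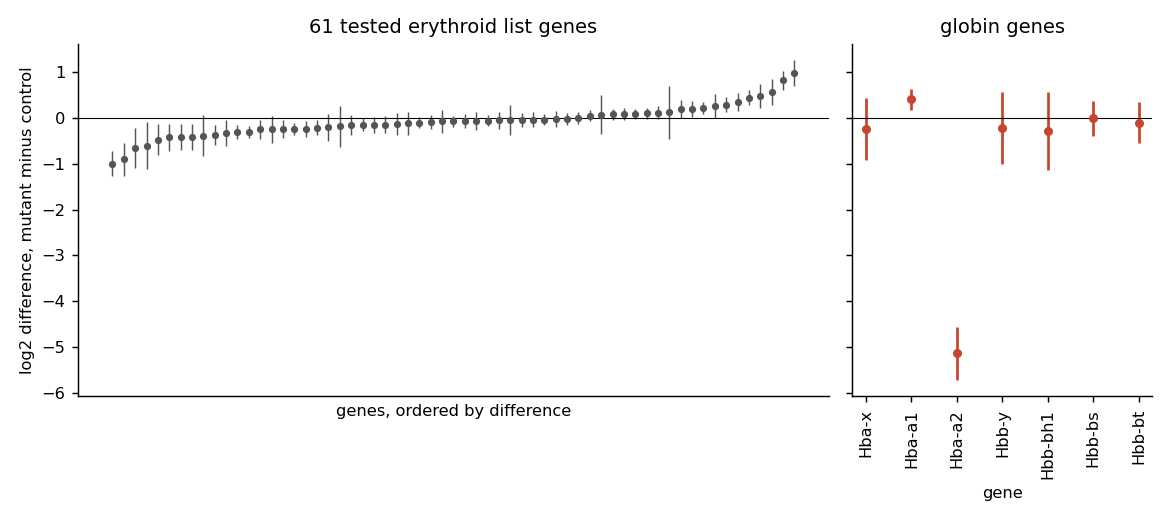
Log2 difference (mutant minus control, with its SE as bars) of the 61 tested genes of the erythroid lists, ordered by value (left), and of the 7 globin genes (right), on a shared axis. The highest of the erythroid genes is Aqp1 at 0.97 and all of them lie far above Hba-a2, which stands at -5.13, while the other globin genes lie between -0.29 and 0.40.

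Some markers of vessel walls, where red cells lie, were higher in mutants. All 18 endothelial markers had a positive difference with a median of 0.91, and 4 of the 18 rose in limma, against 0.219% of all genes tested. They were Emcn (9.38 ± 0.944 to 23.3 ± 2.23 FPKM, limma adjusted p = 0.0105), Tie1 (limma adjusted p = 0.0175), Esam (limma adjusted p = 0.0246) and Cldn5 (limma adjusted p = 0.0395). The authors' deposited table called 14 of the 18, against a background of 4.61% there. The groups did not overlap for 14 of the 18, against 16.7% of all genes tested. The summed level of the list was 259 to 300 FPKM in the controls and 447 to 534 FPKM in mutants, with no member at 0 in any library. Without control 1, 2 or 3 the number called was 1, 9 and 1, and without mutant 1, 2 or 3 it was 0 each time, while the median stayed between 0.80 and 1.03. Globin RNA overlapped between the same groups. The macrophage list was not called for any of its 15 genes (14 positive, median 0.68), against a background of 0.307% of all genes tested. Of the 15, 7 had an unadjusted limma p under 0.05, against 1630 of all 16933 genes tested. The groups did not overlap for 5 of the 15, against the same 16.7%. The summed level of this list was 27.5 to 33.9 FPKM in the controls and 36.3 to 58.0 FPKM in mutants. Of 12 platelet genes 6 were tested and none was called, with summed levels of 7.55 to 8.12 and 10.4 to 15.7 FPKM. Among these 6, 2 had an unadjusted limma p under 0.05 and 2 had groups that did not overlap. The part of these cells in the globin values was not tested.

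Around the alpha cluster, which spans 20.9 kb, none of the 5 tested neighbours outside the globin genes was called. The background was 0.307% of all genes tested, so nothing is read from this count. Nprl3, whose introns hold the main alpha globin enhancers and which has its own housekeeping role, was at 7.28, 6.61 and 7.11 FPKM in the controls and 8.01, 7.11 and 6.95 FPKM in mutants (log2 difference 0.07, SE 0.13, limma adjusted p = 0.846). The DNA repair gene Mpg was at 15.2 ± 1.01 and 17.7 ± 0.758 FPKM (limma adjusted p = 0.563), and Rhbdf1 at 8.59 ± 1.03 and 11.1 ± 0.369 FPKM (limma adjusted p = 0.424), both higher in all 3 mutants. Snrnp25 was at 34.6 ± 2.43 and 34.2 ± 4.58 FPKM and Sh3pxd2b at 16.5 ± 1.84 and 14.3 ± 2.72 FPKM, with overlapping groups. Hbq1b, a theta globin gene that lies between Hba-a1 and Hba-a2, was listed at 0 in mutant 2 and was at most 0.473 FPKM elsewhere, and like the pseudogene Gm12109 it did not pass the filter on low values. The differences of the 5 tested neighbours outside the globin genes were between -0.22 and 0.38. Within 150 kb of the beta cluster, which spans 40.7 kb, the table held Hbb-bh0 and the pseudogene Dnajc19-ps, which was not tested.

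**Figure D5:**
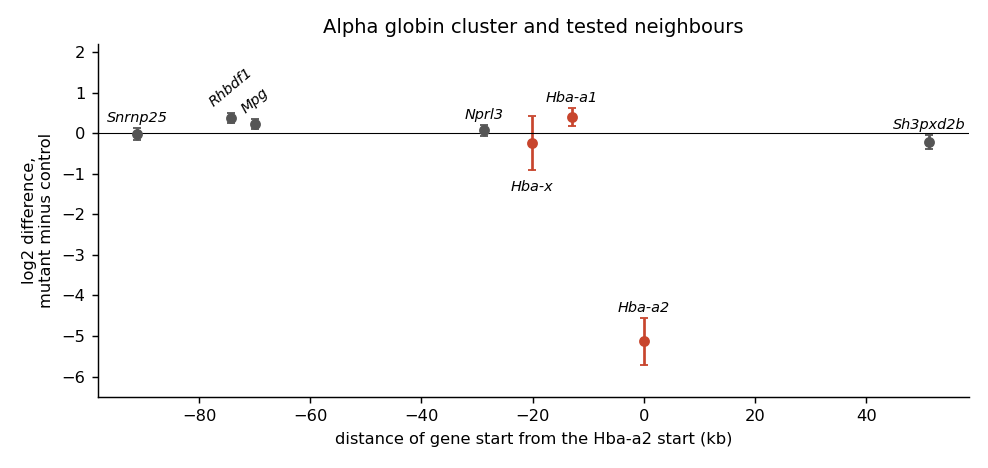
Log2 difference (mutant minus control, bars are SE) of the alpha globin genes in red and of their tested neighbours in grey, against the distance of each gene's start from that of Hba-a2 in kb. Hba-a2 lies at -5.13, and the neighbours from Snrnp25 to Sh3pxd2b lie near 0, between -0.22 and 0.38.

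Genes with the most similar profile over the 6 libraries were listed for 3 globin profiles, by Pearson's r of log2(normalized count + 1) among 12223 genes. For Hba-a2 they were Taf5l (r = 0.992), Ankrd6, Prkca, Zdhhc13 and Nsun4, all lower in all 3 mutants but by far less, with log2 differences of -0.80 for Prkca and -0.15 to -0.36 for the others. For the adult globins summed they included Ppp2r3a (r = 0.985), Lxn and Inpp4b. Lxn was at 22.3, 26.7 and 20.1 FPKM in the controls and 23.9, 20.6 and 26.3 FPKM in mutants, highest in control 2 and then mutant 3, as adult globin was. For the embryonic globins summed they were Pofut1 (r = 0.993), Pigm, Fam19a2, Dzip1 and Taf8. Fam19a2 was at 3.94, 2.26 and 3.37 FPKM in the controls and 1.62, 3.89 and 3.35 FPKM in mutants, lowest in mutant 1 and control 2. With 6 points and this many genes, high values of r arise for any profile, so these names are a description.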

How the data were processed

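The submitters' processing notes name mm10 and, with no stated role, DESeq2, HTSeq 0.6.1p2, STAR 2.6.0c and Trim Galore as tools of the authors. The deposited table held FPKM for each library (a unit taken from the values), the authors' mean normalized signal, log2 fold change with SE, test score and p-value, per the file headers. FPKM times mean signal over mean FPKM gave normalized counts, of which 100% of 134364 were whole multiples of 1 read per library, to within 1e-06. The main test was limma 3.58.1 (R 4.3.3) with an intensity trend on log2(normalized count + 1), with Benjamini-Hochberg adjustment over 16933 genes. The design text speaks of 3 mutant mice. That a library is a single mouse was taken from it, and p-values measure the spread between libraries. The script was tested on simulated data.

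The members, lists and rules were chosen with earlier results of these data known. Named were all members, the called genes of each list or else its 3 tested genes of highest mean normalized count, genes within 150 kb of a cluster, and the 5 most alike, of which a few are not reported here. Positions came from GENCODE M21, which matched 22355 identifiers (99.8%). Replicate numbers did not pair the samples. Other scalings, pseudocounts, filters, weights and left-out libraries were tried.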

Additional observations from a re-analysis of the deposited data

How the results depend on the processing

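The number of genes called was 52 in limma as described, 17 with a replicate block, 380 with library weights, 215 with a term for the grouping of libraries described under the other observations (chosen after seeing the data), and 732 in the authors' deposited table. Leaving out 1 library gave 9 to 158 calls: 15 (control 1), 158 (control 2), 19 (control 3), 12 (mutant 1), 9 (mutant 2) and 13 (mutant 3). Of the erythroid list genes, 0 were called in limma as described and 2 with library weights. None was called without any 1 library, under another scaling, pseudocount or filter, with the block or in the authors' deposited table. The Hba-a2 difference was -5.13 with the replicate block and ranged from -5.89 to -4.68 over the fits that each left out 1 library. Its limma call, from which nothing is read since the gene was chosen with this contrast known, was lost with the block and without control 1, mutant 1 or mutant 2. Same-numbered samples did not pair: the correlations of their deviations from the group means were 0.000811, -0.0981 and 0.309, and not every sample correlated best with its own number. From deposited FPKM in place of reads, the Hba-a2 share of the adult alpha pair differed by -8.10 percentage points, against -6.54 from reads. No scaling moved the median of all genes by more than 0.05 on the log2 scale. The Hba-a2 share in mutants rested on 10 to 200 reads of Hba-a2.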

Other observations

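The signs of several globin differences depended on how the libraries were grouped in the model. Over 9950 genes with a normalized count above 200 in every library, the log2 fold changes in the authors' deposited table were returned by a model of genotype plus a term with 3 levels, namely control 1 alone, control 2 with mutants 1 and 2, and control 3 with mutant 3. The median absolute difference was 0.000712 and 100% of genes were within 0.05. Genotype alone gave a median absolute difference of 0.0813, with 31.8% of genes within 0.05. Of the 73 groupings compared, this was the closest, and no label used here states what it stands for. Under it control 1 carries no weight in the comparison of genotypes. With this term in limma, which was chosen after seeing the data, the log2 differences were 0.44 for Hbb-y, 0.52 for Hbb-bh1, 0.53 for Hba-x, -0.35 for Hbb-bs, -0.49 for Hbb-bt, 0.47 for Hba-a1 and -4.78 for Hba-a2. Control 1 was the library with the highest level of all 3 embryonic genes. Within the level of control 2, Hba-a2 was at 106 FPKM against 1.64 and 1.35 FPKM in mutants 1 and 2, and within that of control 3 it was at 62.9 FPKM against 7.55 FPKM in mutant 3.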
